A study of Mus musculus with 9 samples.

Results

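The carbonic anhydrase genes Car2, Car4, Car5b, Car8, Car9, Car11, Car12, Car13 and Car14 were followed in primary tumours grown from 3 mouse mammary carcinoma lines. These 9 genes were read by 17 probe sets that the array annotation gives to 1 of them alone, out of 18194 genes and 45101 probe sets in all. The probe set shown for a gene was chosen by its mean signal across the 9 arrays, the brightest being taken, and that mean is not tested. The genes were listed with earlier results of these data known, Car9 and Car12 among them for their differences between lines, so their p-values set each difference against the spread between mice and support nothing beyond that.

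The tumours came from female BALB/c mice, 7 to 9 weeks old by the labels, that received 1000000 viable 4T1/CMVLUC, 66cl4/CMVLUC or 67NR/CMVLUC cells in a mammary gland. There were 3 mice per line, the tumour was removed on day 15, and RNA of laser-captured tumour areas was hybridised to 1 array per mouse. 4T1, which spreads to lung and other organs, and 66cl4, which spreads to lung, were set against 67NR, which forms tumours but does not metastasise. All 3 derive from a single mouse mammary tumour, and all carried the CMVLUC construct. Each group is 1 cell line, so its 3 mice measure the spread between hosts and not between lines of like behaviour.

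Carbonic anhydrases are zinc enzymes that convert carbon dioxide and water into bicarbonate and a proton, and back. Car9 and Car12 sit in the plasma membrane with the active site outside the cell, where they take part in the control of pH around tumour cells. Transcription of the human counterpart of Car9 is a standard readout of hypoxia, driven by hypoxia-inducible factor at an element next to its start site. Car4 and Car14 are also active at the cell surface, Car2 and Car13 in the cytosol and Car5b in mitochondria, whereas Car8 and Car11 are carbonic anhydrase-related proteins that lack the catalytic activity.

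The promoters of Car9 and Car12 are shown because these genes had the widest gaps between lines. Each stretch holds the 120 bases before the start site from RefSeq, build GRCm38.p6, on the plus strand: chr4:43506906-43507025 for Car9 and chr9:66713566-66713685 for Car12. Capitals mark the core letters of a hypoxia response element, ACGTG or GCGTG, searched on both strands.
Car9: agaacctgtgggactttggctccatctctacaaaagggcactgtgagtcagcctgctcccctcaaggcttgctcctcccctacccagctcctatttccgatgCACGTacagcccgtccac
Car12: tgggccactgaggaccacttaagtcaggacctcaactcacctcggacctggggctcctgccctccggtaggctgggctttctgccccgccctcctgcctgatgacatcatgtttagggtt
In Car9 the only match in the table's 300 bases, from 250 before to 50 after the start, was ACGTG on the minus strand, whose plus-strand letters begin 18 bases before the start. The Car12 window held no match. Promoters of 6 of the 9 genes were in the table, and 5 of them held at least 1 match, among them Car5b with 5. Of all 32851 promoters listed by RefSeq, 43.8% held ACGTG or GCGTG and 19.6% held ACGTG, so such a match is common. The motifs searched share the letters CGTG, and a match describes the sequence and shows no binding.

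Values are log2 signals as deposited by the authors, 1 per probe set and array, and 13410 genes entered the test, 8 of the 9 carbonic anhydrase genes among them. To enter, a gene needed a signal over the 40th percentile of all probe sets in 3 or more of the 9 arrays. The highest of 27 bacterial control probe sets, 4.83 to 5.08 per array, stood in for background, since the file holds no detection call. Each pair of lines was compared with limma over all 9 arrays, and a gene was called at a Benjamini-Hochberg adjusted p under 0.05. Of the 10 epithelial markers measured, summed signals were 14.78 to 15.04 in 4T1, 12.88 to 13.23 in 66cl4 and 9.04 to 9.18 in 67NR tumours on the log2 scale, and E-cadherin (Cdh1) was not above background on any 66cl4 or 67NR array. The keratin gene Krt8 made up nearly all of the 66cl4 sum, at 12.78 to 13.17, and was the 1 marker of 10 called higher in 66cl4 than in 67NR. The captured areas hold host cells as well, and fewer cells of a type cannot be told apart from less RNA per cell.

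Car9 was high in tumours of both metastatic lines and close to background in 67NR tumours. Its log2 signal was 9.98, 10.12 and 10.43 in the 3 4T1 tumours, 10.21, 10.76 and 9.99 in the 66cl4 tumours and 5.97, 5.21 and 5.10 in the 67NR tumours. Every 4T1 and 66cl4 array lay above every 67NR array, and the 4T1 and 66cl4 ranges overlapped. The 67NR values were all above the controls of their own arrays, the lowest by a narrow margin. Car9 was higher in 4T1 than in 67NR tumours by a log2 difference of 4.75 ± 0.26, or 27.0-fold (SE, 3 mice a line; limma adjusted p = 8.95e-07). It was higher in 66cl4 than in 67NR tumours by 4.89 ± 0.26, or 29.7-fold (limma adjusted p = 1.73e-06). Between 4T1 and 66cl4 tumours it differed by -0.14, with a 95% interval of -0.72 to 0.44 (limma adjusted p = 0.704), which does not show that they were alike. The Car9 differences from 67NR rest on 1 probe set, since the array has no other for this gene.

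Car12, the other tumour-linked membrane enzyme, was seen in 4T1 tumours alone. Its log2 signal was 7.93, 7.86 and 7.52 in 4T1 tumours, 3.91, 4.28 and 3.92 in 66cl4 tumours and 4.28, 4.03 and 4.14 in 67NR tumours. No 66cl4 or 67NR array lay above background. Taking background as the lower limit, Car12 was at least 7.10-fold higher in 4T1 than in 67NR tumours (limma adjusted p = 1.55e-07) and at least 7.27-fold higher in 4T1 than in 66cl4 tumours (limma adjusted p = 1.15e-07). The measured differences, 3.62 ± 0.15 and 3.73 ± 0.15 (log2, SE over 3 mice a line), exceed those bounds because they use signals below background. Car12 entered the test only through its 4T1 arrays, the group where it is high, and so had to differ. With 66cl4 and 67NR both below background no fold is given for that pair.

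The other Car12 probe sets did not show this gap. Both were at or below background on all 9 arrays, with line means of 3.80 and 3.78 in 4T1, 3.77 and 3.41 in 66cl4 and 3.91 and 3.36 in 67NR tumours. When the 3 probe sets were averaged, the log2 difference was 1.31 between 4T1 and 67NR and 1.38 between 4T1 and 66cl4 tumours, and both kept an adjusted p under 0.05 (limma, 5.12e-06 and 3.21e-06). That average contains the brightest probe set and is no separate check, so the Car12 result rests on the brightest probe set.

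**Figure D1:**
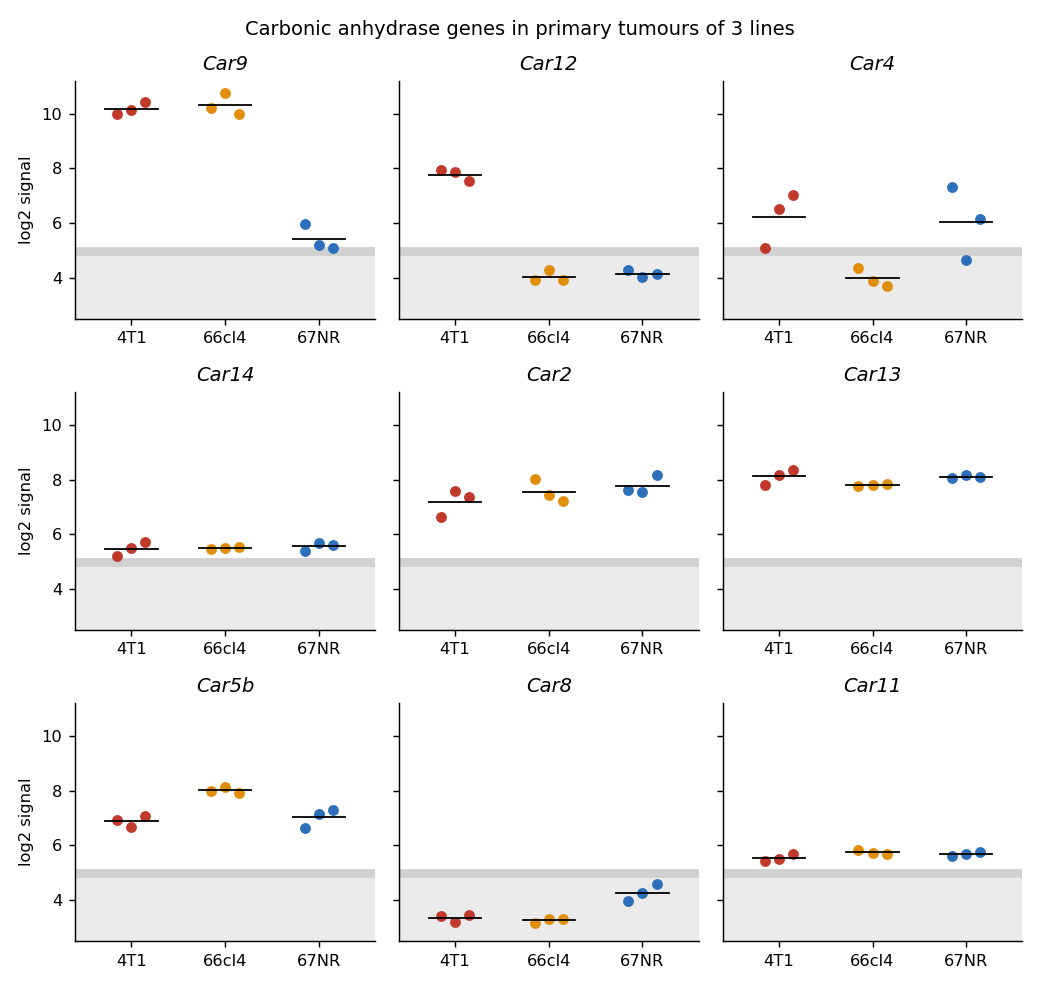
Log2 signal (y axis) of the 9 carbonic anhydrase genes in tumours of 4T1, 66cl4 and 67NR (x axis), 1 point per mouse with the mean of 3 as a line; the darker band spans the highest bacterial control of each array, 4.83 to 5.08, and the lighter area lies below it. Car9 stood near 10 in 4T1 and 66cl4 tumours, Car12 rose above the band in 4T1 tumours alone, and all Car8 points lay below it.

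Car4, a membrane-anchored enzyme known from capillary endothelium among other cells, was lowest in 66cl4 tumours and uneven elsewhere. Its log2 signal was 5.09, 6.50 and 7.03 in 4T1 tumours, 4.34, 3.89 and 3.70 in 66cl4 tumours and 7.32, 4.66 and 6.16 in 67NR tumours. It was not above background on any 66cl4 array or in 67NR replicate 2, and the 4T1 and 67NR values overlapped widely. Against background as the lower limit, Car4 was at least 2.20-fold lower in 66cl4 than in 67NR tumours. It was at least 2.46-fold higher in 4T1 than in 66cl4 tumours. The 67NR mean behind the first bound includes replicate 2, itself below background. The measured differences, which use signals below background, were -2.07 and 2.23 (log2, limma adjusted p = 0.0296 and 0.0188). With signals raised to the bacterial controls they were -1.19 and 1.30, and neither was called. Between 4T1 and 67NR tumours Car4 differed by 0.16 (95% interval -1.26 to 1.59, limma adjusted p = 0.866).

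The Car4 calls were not firm, and no 66cl4 array helped it pass the filter on low signals. The difference between 66cl4 and 67NR tumours lost its call when any 66cl4 array or 67NR replicate 1 or 3 was left out, with log2 differences of -2.25, -2.02, -1.93, -1.43 and -2.01 (limma adjusted p up to 0.0997), and grew to -2.76 without 67NR replicate 2. The difference between 4T1 and 66cl4 tumours lost it without 4T1 replicate 2 or 3 or 66cl4 replicate 2 or 3 (2.08, 1.82, 2.18 and 2.09, adjusted p up to 0.0683). The second Car4 probe set, of a design that may read other transcripts, pointed the same way at -1.44 for 66cl4 against 67NR and 1.32 for 4T1 against 66cl4, and passed neither test (limma adjusted p = 0.0686 and 0.0807, over all probe sets). Endothelial markers stood beside these changes. Their summed log2 signals over 10 genes were 10.96 to 11.13 in 4T1, 10.37 to 10.76 in 66cl4 and 12.45 to 13.02 in 67NR tumours, with 10 of 10 called lower than in 67NR in each metastatic line and 5 of 10 higher in 4T1 than in 66cl4. Over all genes 20.5% and 16.0% were lower in 4T1 and 66cl4 than in 67NR, and 17.9% higher in 4T1 than in 66cl4. All 10 markers were above background on some array, and their part in the Car4 result was not tested.

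Car14, another surface enzyme, was near background in all tumours, at 5.19 to 5.71 in 4T1, 5.45 to 5.55 in 66cl4 and 5.38 to 5.68 in 67NR. No Car14 comparison passed, with log2 differences of -0.10, -0.06 and -0.03 for 4T1 against 67NR, 66cl4 against 67NR and 4T1 against 66cl4. Its only probe set is also of the design that may read other transcripts.

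The cytosolic enzymes Car2 and Car13 were measured in all 9 tumours. Car2, the widely expressed fast enzyme of red cells and other tissues, had log2 signals of 6.61, 7.58 and 7.37 in 4T1 tumours, 8.02, 7.44 and 7.22 in 66cl4 tumours and 7.61, 7.53 and 8.15 in 67NR tumours. The 3 ranges overlapped. Its difference was -0.58 for 4T1 against 67NR (95% interval -1.22 to 0.06, limma adjusted p = 0.142), -0.20 for 66cl4 against 67NR (-0.84 to 0.44, adjusted p = 0.618) and -0.37 for 4T1 against 66cl4 (-1.01 to 0.27, adjusted p = 0.336). Red cell markers were set beside Car2. Their summed log2 signals over 7 genes were 7.68 to 8.01 in 4T1, 7.94 to 8.52 in 66cl4 and 8.34 to 8.71 in 67NR tumours. Of the 5 tested, 3 were called lower in 4T1 and 1 in 66cl4 than in 67NR, and 0 were called between 4T1 and 66cl4. These are 60%, 20% and 0%, against 39.9%, 36.1% and 41.3% of all genes. Of the 7 markers, 1 was below background throughout, the alpha-globin gene Hba-a1. Their part in the Car2 values was not tested.

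Car13 stayed within a narrow span. Its log2 signal was 7.82, 8.18 and 8.34 in 4T1 tumours, 7.76, 7.82 and 7.85 in 66cl4 tumours and 8.06, 8.16 and 8.08 in 67NR tumours. The 66cl4 values lay below all 67NR values, yet the difference of -0.29 ± 0.13 did not pass the test (SE, 3 mice a line; limma adjusted p = 0.116). It did pass when 66cl4 and 67NR were fitted without 4T1 (adjusted p = 0.0318) or without 4T1 replicate 1 (0.0370). Between 4T1 and 66cl4 tumours the difference was 0.30 (adjusted p = 0.0945) and became 0.45 without 4T1 replicate 1 (adjusted p = 0.00848). Between 4T1 and 67NR tumours it was 0.01 (95% interval -0.28 to 0.31). The dimmer tested Car13 probe set differed by -0.38 between 66cl4 and 67NR tumours and did not pass either (limma adjusted p = 0.122). Car13, Car1, Car3 and Car2 lie next to each other in this order among the protein-coding genes of chromosome 3.

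Car5b, the mitochondrial enzyme, was higher in 66cl4 tumours than in tumours of either other line. Its log2 signal was 6.91, 6.68 and 7.07 in 4T1 tumours, 7.99, 8.13 and 7.91 in 66cl4 tumours and 6.64, 7.16 and 7.30 in 67NR tumours. All 66cl4 values lay above all others, and the 4T1 and 67NR values overlapped. Car5b was higher in 66cl4 than in 67NR tumours by 0.97 ± 0.18, or 1.96-fold (SE, 3 mice a line; limma adjusted p = 0.00201), and lower in 4T1 than in 66cl4 tumours, with a difference of -1.12 ± 0.18 (adjusted p = 0.000728). The difference between 4T1 and 67NR was -0.15 (95% interval -0.54 to 0.24, adjusted p = 0.545).

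The second Car5b probe set showed the same pattern. Its log2 signals were 6.40, 6.46 and 7.01 in 4T1, 7.69, 7.76 and 7.72 in 66cl4 and 6.17, 6.53 and 6.81 in 67NR tumours. It was higher in 66cl4 than in 67NR tumours by 1.22 and lower in 4T1 than in 66cl4 tumours, with a difference of -1.10 (limma adjusted p = 0.00107 and 0.0016, over all probe sets). Of the 5 genes with more than 1 probe set, Car5b was the only gene for which a second probe set was called. The others were Car4 and Car13, with a second probe set tested, and Car8 and Car12, whose further probe sets were too dim to test.

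**Figure D2:**
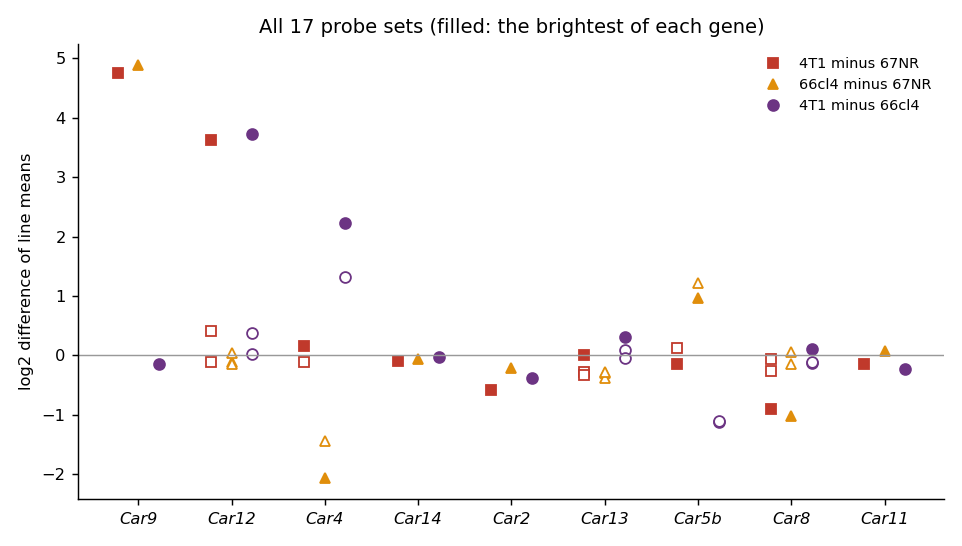
Difference of line means in log2 signal (y axis) for each of the 17 probe sets of the 9 genes (x axis), with a symbol per comparison, filled for the brightest probe set of a gene and open for the others. The pair of Car5b probe sets fell close together, while the open Car12 symbols lay near 0, far below the filled ones at 3.62 and 3.73.

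The carbonic anhydrase-related genes gave little signal. Car8, whose protein binds the inositol trisphosphate receptor, was at 3.41, 3.21 and 3.46 in 4T1 tumours, 3.15, 3.29 and 3.31 in 66cl4 tumours and 3.96, 4.24 and 4.60 in 67NR tumours. The 67NR values were above all others but below background, and Car8 did not enter the test. Without the filter on low signals its differences were -0.91 for 4T1 and -1.02 for 66cl4 against 67NR (limma adjusted p = 0.00144 and 0.000851). Its other probe sets, also below background on every array, did not show this gap. They differed from 67NR by -0.06 and -0.25 in 4T1 and by 0.06 and -0.14 in 66cl4 tumours. Car11 was at 5.41 to 5.68 in 4T1, 5.70 to 5.84 in 66cl4 and 5.61 to 5.77 in 67NR tumours and passed no test. Its values in 4T1 lay below all those in 66cl4, with a difference of -0.22 ± 0.11 (SE, 3 mice a line; limma adjusted p = 0.119, but -0.30 and 0.0482 without 4T1 replicate 3).

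Of the 8 genes tested, 2 were higher (Car9 and Car12) and 0 lower in 4T1 than in 67NR tumours, where 39.9% of all genes were called, 19.4% higher and 20.5% lower. In 66cl4 against 67NR tumours 2 were higher (Car9 and Car5b) and 1 lower (Car4), where 36.1% of all genes were called, 20.0% higher and 16.0% lower. In 4T1 against 66cl4 tumours 2 were higher (Car12 and Car4) and 1 lower (Car5b), where 41.3% of all genes were called, 17.9% higher and 23.4% lower. As shares of the 8 these are 25.0%, 37.5% and 37.5%, against 39.9%, 36.1% and 41.3% of all genes, so no share stands well above its background. The median log2 difference of the 8 was -0.04, -0.09 and -0.09 in the same order, and that over all genes was -0.03, 0.01 and -0.03. The comparisons share tumours, since each line enters a pair of them.

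**Figure D3:**
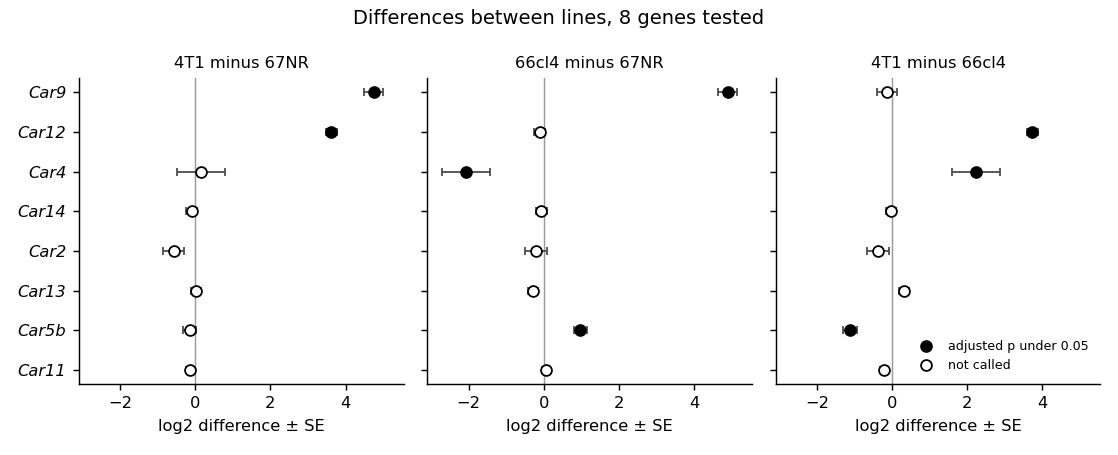
Log2 difference with its standard error (x axis) of the 8 tested carbonic anhydrase genes (rows) in 4T1 minus 67NR, 66cl4 minus 67NR and 4T1 minus 66cl4, filled where the limma adjusted p was under 0.05. Car9 was called against 67NR in both metastatic lines, Car12 in both comparisons with 4T1, and Car5b and Car4 in both comparisons with 66cl4.

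The remaining members of the mouse family were Car1, Car3, Car5a, Car6, Car7, Car10 and Car15, of which 3 were tested. Car1, Car5a, Car6 and Car10 were not above background on any array. Car15 was at 6.17, 5.70 and 6.00 in 4T1 tumours, 5.73, 5.06 and 5.46 in 66cl4 tumours and 5.98, 5.61 and 5.61 in 67NR tumours. It was higher in 4T1 than in 66cl4 tumours by 0.54 ± 0.19 with overlapping values (SE, 3 mice a line; limma adjusted p = 0.0453, and 0.0501 when every probe set was a row of its own). Car7 did not pass in any comparison, with differences of 0.02, -0.05 and 0.06.

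Car3, an enzyme abundant in adipocytes and skeletal muscle, varied widely between mice, most of all within 4T1 and 66cl4. Its log2 signal was 4.36, 4.28 and 7.61 in 4T1 tumours, 9.45, 7.84 and 5.50 in 66cl4 tumours and 6.23, 5.49 and 4.75 in 67NR tumours. It was not above background in 4T1 replicates 1 and 2 or in 67NR replicate 3, so part of this spread uses signals below background. Car3 passed no test, with a difference of 2.11 ± 1.06 between 66cl4 and 67NR tumours (SE, 3 mice a line; limma adjusted p = 0.153). The dimmer tested Car3 probe set was at 5.58, 5.58 and 5.48 in 67NR tumours. Its difference between 66cl4 and 67NR tumours was 0.66 (limma adjusted p = 0.170, over all probe sets). The adipocyte hormone gene Adipoq, chosen after its values were seen, was at 3.43, 3.43 and 4.71 in 4T1, 6.99, 4.88 and 3.22 in 66cl4 and 3.69, 3.68 and 3.38 in 67NR tumours. It exceeded background in 66cl4 replicate 1 alone, the array with the highest Car3 signal. Over all 8 adipocyte markers measured, summed log2 signals were 8.85 to 9.89 in 4T1, 9.81 to 10.83 in 66cl4 and 12.29 to 12.60 in 67NR tumours, and 3 of them, Cidec, Lep and Pck1, were below background on every array. The fatty acid binding protein gene Fabp4 alone, at 12.18 to 12.43, made up most of the 67NR sum. Of the 4 markers tested, Fabp4 and Pparg were called lower than in 67NR in each metastatic line, and Retn and Lpl were not called. Over 9 skeletal muscle markers the sums were 8.48 to 8.82 in 4T1, 8.40 to 9.68 in 66cl4 and 8.50 to 8.61 in 67NR tumours. Their part in the Car3 values was not tested.

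**Figure D4:**
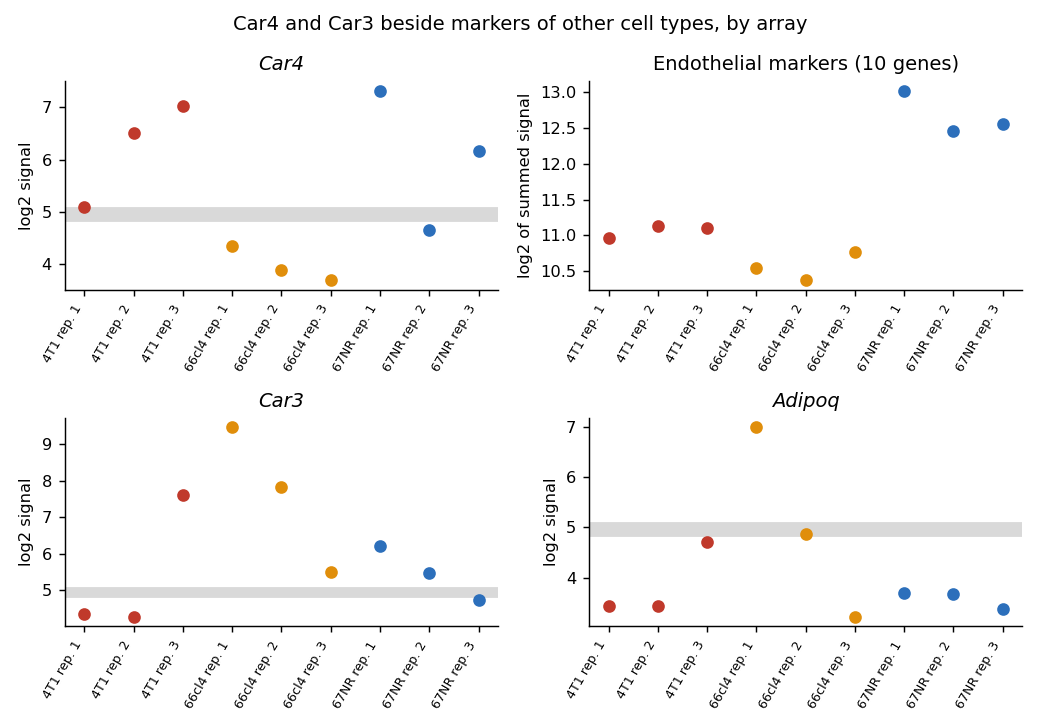
Log2 signal by array (x axis) of Car4, Car3 and the adipocyte gene Adipoq, and the log2 of the summed signal of 10 endothelial markers; points are single mice (red 4T1, orange 66cl4, blue 67NR) and the grey band is the range of the highest bacterial control per array. Car4 lay below the band in all 66cl4 tumours, and 66cl4 replicate 1 had the highest value of both Car3 (9.45) and Adipoq (6.99). Adipoq was chosen after its values were seen and exceeded the control of its own array there alone.

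Because Car9 is known as a target of hypoxia-inducible factor, 24 measured genes of the same kind were set beside it. In 4T1 against 67NR tumours 15 were higher and 0 lower, with a median log2 difference of 0.67. In 66cl4 against 67NR tumours 7 were higher and 4 lower, with a median of 0.21. In 4T1 against 66cl4 tumours 13 were higher and 1 lower, with a median of 0.70. The shares of the 24 called were 62.5%, 45.8% and 58.3%, against 39.9%, 36.1% and 41.3% of all genes. Medians over all genes were -0.03, 0.01 and -0.03 in the same order. The glycolytic gene Pgk1 was higher by 1.47 in 4T1 and 0.91 in 66cl4 (limma adjusted p = 7.46e-06 and 0.000195), and the pyruvate dehydrogenase kinase gene Pdk1 by 1.67 and 1.76 (3.02e-05 and 3.2e-05). The mitophagy gene Bnip3 was higher by 2.65 in 4T1 and 1.98 in 66cl4 (adjusted p = 0.000156 and 0.0011). In 66cl4 tumours the 4 lower genes were Vegfa, Ddit4, Pfkfb3 and Angptl4, with differences of -2.01, -2.05, -1.20 and -1.90, named after their values were seen. Lox, a collagen crosslinking gene also named after its values were seen, was at 8.68, 11.04 and 10.44 in 4T1, 6.16, 7.13 and 5.51 in 66cl4 and 5.85, 5.08 and 5.82 in 67NR tumours. Its difference between 4T1 and 67NR, 4.47 ± 0.58, was near that of Car9 and uneven between mice. Fibroblast markers stood beside these changes. Their summed log2 signals over 6 genes, each above background on all arrays, were 13.53 to 14.94 in 4T1, 12.41 to 13.05 in 66cl4 and 11.77 to 11.91 in 67NR tumours. The collagen genes Col1a1 and Col1a2, with means of 12.60 and 13.18, made up most of the 4T1 sum. Of the 6, 5 were higher and 1 lower in 4T1 than in 67NR, the lower being Pdgfra at -1.65. In 66cl4 against 67NR tumours 4 were higher and 1 lower, the lower being Thy1 at -0.87. The shares called were 100% and 83.3% of the 6, against 39.9% and 36.1% of all genes. The collagen gene Col1a1 was at 11.84, 13.42 and 12.54 in 4T1 tumours, in the same order of mice as Lox. The part of fibroblasts in the hypoxia list was not tested.

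**Figure D5:**
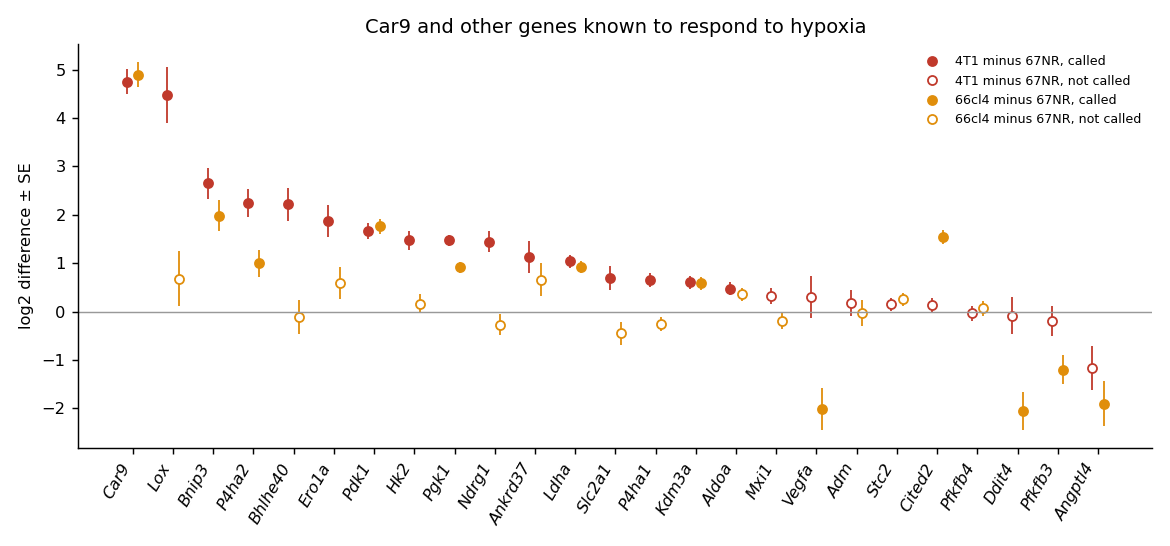
Log2 difference from 67NR tumours with its standard error (y axis) of Car9 and 24 genes known to respond to hypoxia (x axis, in order of their 4T1 difference) for 4T1 and 66cl4, filled where the limma adjusted p was under 0.05. Car9 stood at 4.75 and 4.89, while 4 of the other genes were called lower in 66cl4 and none in 4T1.

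Genes of the hypoxia-inducible factor pathway went different ways. Of 10 tested, 4 were higher and 2 lower in 4T1 against 67NR tumours, and 3 were higher and 2 lower in 66cl4 than in 67NR tumours. In 4T1 against 66cl4 tumours 4 were higher and 3 lower. The shares called were 60%, 50% and 70%, against 39.9%, 36.1% and 41.3% of all genes. Egln3 and Egln1, prolyl hydroxylases that mark the factor for breakdown and are themselves induced by it, were higher by 3.08 ± 0.17 and 1.30 ± 0.18 in 4T1 (SE, 3 mice a line; limma adjusted p = 1.03e-06 and 0.000365). In 66cl4 against 67NR tumours Egln3 was lower, with a difference of -0.50 (adjusted p = 0.0440), and Egln1 differed by 0.32 (0.195). Epas1, encoding the HIF-2 alpha subunit and abundant in endothelium, was lower in both metastatic lines, with differences from 67NR of -1.81 in 4T1 and -1.75 in 66cl4 (adjusted p = 0.000462 and 0.000695). Hif1an, the asparagine hydroxylase that curbs the factor, was higher than in 67NR in both metastatic lines, by 0.64 in 4T1 and 1.51 in 66cl4 (adjusted p = 0.00196 and 1.54e-05).

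Transporters that move bicarbonate, protons or lactate work together with carbonic anhydrases. Of 6 tested genes of the bicarbonate transporter families, Slc4a11 among them by sequence, 2 were higher and 1 lower in 4T1 than in 67NR tumours. In 66cl4 against 67NR tumours 3 were higher and 1 lower, and in 4T1 against 66cl4 tumours 1 was higher and 2 lower. The shares called were 50%, 66.7% and 50%, against 39.9%, 36.1% and 41.3% of all genes. Slc4a11, of the bicarbonate transporter family by sequence, was at 10.65, 10.10 and 9.62 in 4T1, 6.94, 7.01 and 6.80 in 66cl4 and 7.55, 7.69 and 7.72 in 67NR tumours. It was higher in 4T1 than in 67NR by 2.47 ± 0.22 and lower in 66cl4 than in 67NR, with a difference of -0.74 ± 0.22 (SE, 3 mice a line; limma adjusted p = 1.9e-05 and 0.0236). The anion exchanger gene Slc4a3 was lower in 4T1 and higher in 66cl4 than in 67NR tumours, with differences of -0.59 and 0.67 (adjusted p = 0.00818 and 0.005).

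Of 10 tested genes for proton and lactate transport 4 were higher and 3 lower in 4T1 against 67NR tumours. In 66cl4 against 67NR tumours 2 were higher and 1 lower, and in 4T1 against 66cl4 tumours 3 were higher and 3 lower. The shares called were 70%, 30% and 60%, against 39.9%, 36.1% and 41.3% of all genes. Slc16a3, the lactate exporter MCT4, was at 8.24, 8.70 and 7.75 in 4T1, 6.53, 7.41 and 6.25 in 66cl4 and 6.38, 5.95 and 5.86 in 67NR tumours. It was higher in 4T1 than in 67NR by 2.17 ± 0.31 (SE, 3 mice a line; limma adjusted p = 0.00048) and differed by 0.66 in 66cl4 (0.131). Slc16a1, the lactate carrier MCT1, was higher than in 67NR in both metastatic lines, by 1.20 ± 0.24 in 4T1 and 1.41 ± 0.24 in 66cl4 (adjusted p = 0.0027 and 0.00131). The organellar sodium-proton exchanger gene Slc9a9 was lower in 4T1 than in 67NR, with a difference of -2.03 ± 0.23 (adjusted p = 9.86e-05), and differed by 0.63 in 66cl4 (0.0574).

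In human breast cancer the counterpart of Car12 is known as an oestrogen-receptor target, so 7 tested genes of that luminal programme were set beside it. Of these, 3 were higher and 0 lower in 4T1 than in 67NR, and 2 higher and 0 lower in 66cl4 than in 67NR. In 4T1 against 66cl4 tumours 2 were higher and 1 lower. These shares, 42.9%, 28.6% and 42.9%, compare with 39.9%, 36.1% and 41.3% of all genes, so none stands well above its background. Esr1, encoding the receptor, was at 7.91, 8.46 and 8.20 in 4T1, 9.10, 8.82 and 8.81 in 66cl4 and 7.01, 6.72 and 7.03 in 67NR tumours. Esr1 was higher than in 67NR by 1.27 in 4T1 and 1.99 in 66cl4 tumours (limma adjusted p = 0.00019 and 1.65e-05). Gata3, a luminal transcription factor gene, was higher by 2.22 in 4T1 and 1.43 in 66cl4 (adjusted p = 7e-07 and 1.84e-05). Foxa1, a partner of the receptor, was at least 1.54-fold higher in 4T1 than in 67NR and above background in 4T1 alone. Its measured difference, which uses signals below background, was 1.27 (limma adjusted p = 0.00204). Like Car12, it entered the test only through its 4T1 arrays and so had to differ. It is counted among the genes called higher in both comparisons with 4T1. The part of the oestrogen receptor in the Car12 values was not tested.

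The genes whose signal followed Car9 and Car12 most closely over the 9 arrays were taken by Pearson correlation, given without a test because the arrays fall into 3 lines. For Car9 these were Hoxa10 (r = 0.996), Rfwd3 (0.994), Carmil1 (0.990), Slc25a1 (0.990) and Ints5 (0.989). Hoxa10, a homeobox gene, was at 6.91, 6.78 and 7.06 in 4T1, 6.80, 7.28 and 7.01 in 66cl4 and 4.11, 3.82 and 3.89 in 67NR tumours, where it was not above background. Slc25a1, the mitochondrial citrate carrier gene, was higher than in 67NR by 2.25 in 4T1 and 2.21 in 66cl4, a smaller gap than that of Car9.

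For Car12 the closest were Tmprss11e (r = 0.997), Tnk1 (0.997), Ripk4 (0.997), Cdcp1 (0.997) and Moxd1 (0.996). Tmprss11e, a membrane serine protease gene, was at 10.11, 9.65 and 9.59 in 4T1, 2.99, 3.03 and 2.97 in 66cl4 and 3.18, 2.90 and 3.09 in 67NR tumours. Ripk4, a kinase gene of epithelial differentiation, was at 8.62, 8.24 and 7.87 in 4T1 and at most 3.64 on any other array. Except for Moxd1, these genes, like Car12, were not above background in 66cl4 or 67NR tumours and likewise entered the test through 4T1. Set beside Car12, 9 of 10 epithelial markers were higher in 4T1 than in 67NR and 9 of 10 higher in 4T1 than in 66cl4. Over all genes 19.4% and 17.9% were higher in these comparisons. Cdh1 and Cldn7 were not above background on any 66cl4 or 67NR array, entered the test only through 4T1 and so had to differ. Krt8 did not follow Car12, being at 12.78 to 13.17 in 66cl4 tumours. The part of epithelial markers in the Car12 result was not tested.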

How the data were processed

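Expression was measured in tumours of 3 lines, 3 mice each, on 1-colour Affymetrix arrays, labelled with the supplier's kit per the labels. The deposited values are log2 signals, 1 per probe set and array, read as log2 from their range of 2.42 to 14.80. For the authors' summary and scaling steps, the sources used here give no account. Array medians were 5.51 to 5.58, so no further scaling was applied. There is no read depth on arrays, so precision depends on how many there are.

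Groups came from the sample titles. Probe sets were named from the platform annotation, with 34958 annotated to 1 gene symbol, 932 to several and 9211 unnamed here. Symbols were updated by Entrez identifier against RefSeq genes of GRCm38.p6, which 34754 matched. Promoter sequences are RefSeq's.

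Linear models were fitted with limma 3.58.1 in R 4.3.3 (6 residual and 3.63 prior degrees of freedom), two-sided, with p-values adjusted over all 13410 genes tested. An exact permutation test of 3 against 3 cannot go below 0.1. A gene at or below the highest bacterial control on all arrays of a line is given as a bound against that control. The fit was tested on simulated data.

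Members and lists were chosen with earlier results of these data known. Named genes are all family members, up to 3 per other list and comparison with the smallest p, and the 5 closest to Car9 and to Car12, passing over unnamed gene models; other names are marked. Some genes of the lists were not analysed here. Alternatives are given in the closing section.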

Additional observations from a re-analysis of the deposited data

How the results depend on the processing

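Each result was recomputed under up to 20 alternatives, 9 of them leaving out 1 array, for 8 genes in 3 comparisons. Car9 against 67NR, Car12 in both comparisons with 4T1, and Car5b in both with 66cl4 kept their direction and their call in all of them. For Car12 the mean of probe sets contains the brightest one and is no separate check. Car9 ranged from 4.16 to 5.02 for 4T1 and from 4.63 to 5.16 for 66cl4 against 67NR, with the lowest value of each when the hybridization controls were a covariate. The number of carbonic anhydrase genes called was 2 to 3 for 4T1 against 67NR and 2 to 4 in the other comparisons.

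With the replicate block, the log2 differences were those of the fit without it and no call changed for these genes; Car4 for 66cl4 against 67NR had an adjusted p of 0.0465. Arrays of the same number did not deviate together (r = -0.115 to 0.159), so the number was not taken as a pairing. Car4 lost its calls with signals raised to the bacterial controls (-1.19 and 1.30, adjusted p = 0.153 and 0.113) and with the hybridization controls (-2.31 and 1.92, 0.0538 and 0.123), and for 4T1 against 66cl4 with the scan file number (1.84, 0.0712). The cause was not tested.

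The scan file numbers and hybridization controls differ between lines, the controls averaging 10.46 ± 0.22 for 4T1 arrays, 10.86 ± 0.23 for 66cl4 arrays and 11.16 ± 0.30 for 67NR arrays (SD, n = 3). With the number as a covariate 2661 of all genes were called in 4T1 against 67NR, and with the controls 2151, against 5348. Uncalled differences that turned sign were as follows, and none was called under either setting. For 4T1 against 67NR, Car4 was -0.94 with the scan number, -0.392 with the controls and -0.53 to 0.799 with 1 array left out. Car5b was 0.0354 with the controls. Car13 was -0.199 with the mean of probe sets, -0.00288 with quantile normalization, -0.0897 with the scan number and -0.101 to 0.161 with 1 array left out. Car14 was 0.117 with the controls and -0.221 to 0.0405 with 1 array left out. For 66cl4 against 67NR, Car11 was -0.0486 and Car12 0.0691 with the scan number, and Car14 was 0.0303 with the controls and -0.151 to 0.000224 with 1 array left out. For 4T1 against 66cl4, Car9 was -0.305 to 0.0776 with 1 array left out, positive only without 66cl4 replicate 2, and Car14 was 0.0862 with the controls and -0.158 to 0.103 with 1 array left out.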
